A study of Mus musculus with 6 samples.

Results

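The BCL2 survival proteins and pore formers were followed at the transcript level through 10 genes, 7 of them coding for survival proteins (Mcl1, Bcl2l1, Bcl2, Bcl2l2, Bcl2a1a, Bcl2a1b and Bcl2a1d) and 3 for pore formers (Bax, Bak1 and Bok). The genes were chosen by symbol, each symbol matched 1 of the 55450 rows of the gene tables, and all 10 passed the filter on low counts that left 22056 genes for testing. PV-10, a rose bengal solution given by injection into lesions, was used in 3 tumours, and the 3 PBS tumours received phosphate-buffered saline by the same route. All 6 tumours grew under the skin of the right flank of C57BL/6 mice from MTE-Ras, a cancer cell line of mouse tracheal epithelium with an oncogenic RAS mutation. The dose, the time from injection to collection, and the age and sex of the mice are not given in the sources used here. The title of the series places apoptosis among the events studied in head and neck cancer, and the tracheal line under the skin is the model that was sequenced.

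Proteins of this family decide at the outer mitochondrial membrane whether a stressed cell survives. BAX and BAK1 assemble into pores that release cytochrome c and so start caspase activity, and BOK is a related pore former. The survival proteins bind BAX, BAK1 and the BH3-only proteins that carry death signals, and keep the pores from forming. Much of this control lies in binding and protein turnover, which RNA does not show.

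The tumours came from 6 different mice, so p-values rest on the spread between animals. Total counts were 60082066, 36730318 and 94203331 in PV-10 tumours 1, 2 and 3, and ran from 87386266 to 98717951 in PBS tumours. PV-10 tumour 3 stood apart from the other 2 of its group. Its log2 CPM (counts scaled to a common library size) correlated with those of PBS tumours at 0.909 to 0.930, and with those of PV-10 tumours 1 and 2 at 0.874 and 0.822. Among 9 markers of epithelial tumour cells, the keratin genes Krt8 and Krt18 were abundant in every tumour (36.2 to 170 TPM in PV-10 tumours and 129 to 219 TPM in PBS tumours). Epcam was at 0.06 to 0.54 TPM in PV-10 tumours and 0 to 0.2 TPM in PBS tumours, and Krt5 and Trp63 were below 0.5 TPM in all 6. TPM, the transcript abundance scaled by length, is used for every comparison of levels between genes.

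Bcl2a1b and Bcl2a1d rose in PV-10 tumours, and none of the other 8 genes reached an adjusted p under 0.05 in edgeR's quasi-likelihood test (3 tumours per group). Thus 2 of 10 genes were called, both higher, where 3.17% of all tested genes were called higher and 1.92% lower. Both calls were lost once each library's trend with transcript length and GC content was removed, and once any tumour other than PV-10 tumour 3 was left out. In those 5 fits, which called 1 to 5 genes in the whole table, the log2 change was 1.56 to 1.92 for Bcl2a1b (edgeR adjusted p from 0.0735 to 0.205) and 1.34 to 2.05 for Bcl2a1d (0.0755 to 0.222). Of the log2 changes of the 10 genes, 5 were positive and 5 negative, with a median of 0.06. The median was 0.40 over the 7 survival genes, -0.28 over the 3 pore formers and 0.30 over all tested genes. In CPM the groups did not overlap for 4 genes that were higher in PV-10 tumours (Mcl1, Bcl2a1b, Bcl2a1d and Bax), against 22.0% of all tested genes, and for Bcl2l2, which was lower, against 16.8%. In TPM they did not overlap for 2 that were higher (Bcl2a1b and Bcl2a1d), against 9.58%, and for 4 that were lower (Bcl2, Bcl2l1, Bcl2l2 and Bak1), against 31.0%. The median of all genes was 0.30 in the edgeR fit and -0.21 on the log2(TPM + 1) scale. Mcl1 and Bax were positive in the edgeR fit and negative on the TPM scale, and the other 8 genes had the same sign on both.

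**Figure D1:**
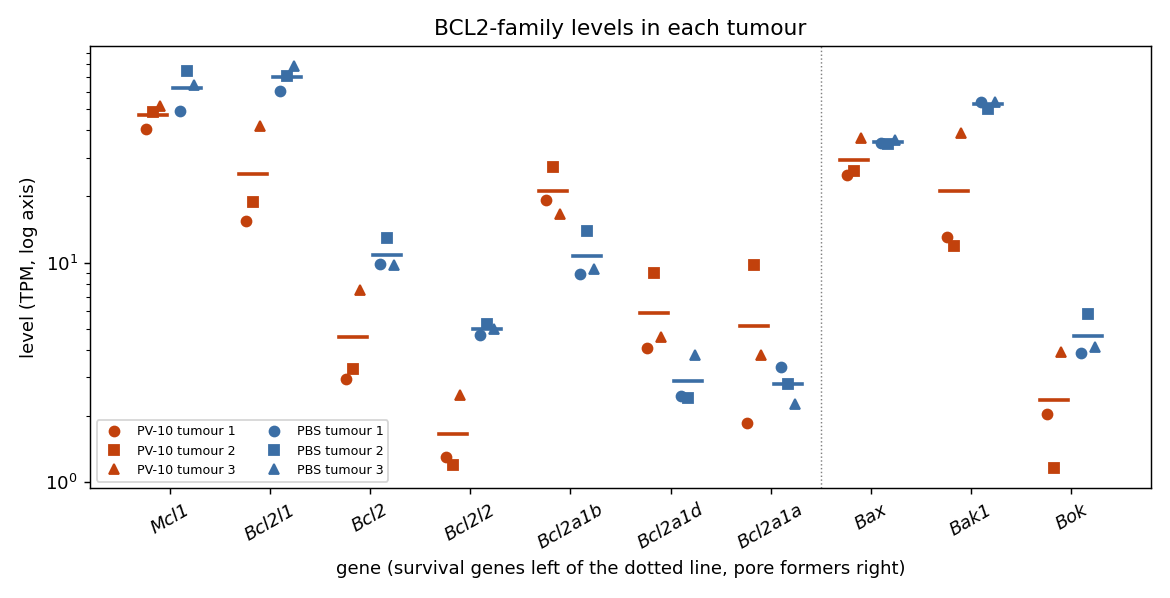
Level of each gene in TPM (log axis) in the 3 PV-10 tumours (left in each pair, orange) and the 3 PBS tumours (right, blue); symbols mark the tumour number and the short line the mean. Bcl2a1b and Bcl2a1d lie higher in all 3 PV-10 tumours, Bcl2, Bcl2l1, Bcl2l2 and Bak1 lie lower, and PV-10 tumour 3 is the PV-10 tumour nearest to the PBS tumours for those 4.

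Mcl1 codes for a survival protein that is made and broken down quickly (ENSMUSG00000038612.16, mm10 chromosome 3, 95658788 to 95663176). It had 319, 352 and 275 CPM in PV-10 tumours 1, 2 and 3, and 227, 248 and 244 CPM in PBS tumours 1, 2 and 3. Every PV-10 tumour lay above every PBS tumour in CPM, with PV-10 tumour 3 the lowest of its group. The log2 change was 0.40 (SE 0.25, edgeR adjusted p = 0.319), short of the threshold. In TPM, the levels were 40.4, 48.5 and 51.4 in PV-10 tumours against 48.9, 74.1 and 64.5 in PBS tumours, so the groups overlapped and the log2(TPM + 1) change was -0.40. Relative to the median of all genes, the change was 0.09 in the edgeR fit and -0.18 on the TPM scale.

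Bcl2l1, which codes for BCL-XL (ENSMUSG00000007659.18, chromosome 2, 152780668 to 152831728), was the survival gene with the highest mean TPM in PBS tumours. Its levels were 15.5, 19.0 and 41.7 TPM in PV-10 tumours 1, 2 and 3, and 60.2, 70.9 and 78.4 TPM in PBS tumours 1, 2 and 3. The groups did not overlap, and PV-10 tumour 3 was well above the other PV-10 tumours. In CPM, PV-10 tumour 3 (98.2) lay within the PBS range of 94.5 to 116, above PV-10 tumours 1 and 2 (57.2 and 61.3). The edgeR log2 change was -0.52 (SE 0.29, adjusted p = 0.259). With limma on log2(TPM + 1) it was -1.55 and passed, in a test that called 17.2% of all genes lower.

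Part of the distance between both scales for Bcl2l1 lay in the transcript length that the deposited tables imply. Dividing counts by TPM gave an average effective length of 1528, 1448 and 1433 bases in PV-10 tumours 1, 2 and 3, against 1095, 1365 and 1272 bases in PBS tumours 1, 2 and 3. Each PV-10 tumour thus had a longer implied average over the 9 annotated Bcl2l1 transcripts, by 18.1% in the mean. Of 11136 genes with such an estimate, 22.6% had longer values in all 3 PV-10 tumours. Genes with 1 annotated transcript moved too: for Bcl2a1a, Bcl2a1b and Bcl2a1d the PV-10 mean was higher by 2.66% to 2.89%. Whether the mixture of Bcl2l1 transcripts differed was not tested, since the tables hold gene totals.

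Bcl2, the gene that names the family (ENSMUSG00000057329.7, chromosome 1, 106538178 to 106714274), had 2.96, 3.27 and 7.49 TPM in PV-10 tumours 1, 2 and 3, and 9.90, 12.9 and 9.71 TPM in PBS tumours 1, 2 and 3. All PV-10 tumours were below all PBS tumours in TPM. In CPM, PV-10 tumour 3 (86.4) lay inside the PBS range of 76.7 to 94.9, above 49.3 and 50.03 in PV-10 tumours 1 and 2. Its log2 change was -0.50 (SE 0.30, edgeR adjusted p = 0.294). It took a small positive value of 0.10 with the length and GC trend removed. An exon of D630008O14Rik overlaps Bcl2 on the opposite strand over 558 bases, with 0 to 58 counts per tumour. Bcl2l2, which codes for BCL-W, was the survival gene with the lowest mean in PV-10 tumours, at 1.3, 1.20 and 2.50 TPM in PV-10 tumours 1, 2 and 3, against 4.70, 5.23 and 4.96 TPM in PBS tumours 1, 2 and 3. Its groups did not overlap on either scale, and the edgeR log2 change of -0.69 (SE 0.31) did not pass (adjusted p = 0.168). Bcl2l2 (ENSMUSG00000089682.10, chromosome 14, 54883377 to 54888234) shares 594 exon bases with the read-through gene model Gm20521, which had 30 counts in PBS tumour 2 and 0 in the other 5.

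The Bcl2a1 genes code for A1, a survival protein best known from white blood cells, where NF-kappaB factors switch it on. Mice carry several copies side by side on chromosome 9, at 88956900 to 88962419 for Bcl2a1a (ENSMUSG00000102037.1, plus strand), 89199209 to 89207827 for Bcl2a1b (ENSMUSG00000089929.1, plus strand) and 88723285 to 88731914 for Bcl2a1d (ENSMUSG00000099974.1, minus strand). The first 120 coding bases, read 5′ to 3′ on each gene's own strand from the Gencode release M21 transcripts, show how little separates the copies; capitals mark the 7 positions at which at least 1 of the 3 differs.
Bcl2a1a: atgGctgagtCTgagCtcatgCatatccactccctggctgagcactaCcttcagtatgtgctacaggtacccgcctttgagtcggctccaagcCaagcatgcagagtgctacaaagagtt
Bcl2a1b: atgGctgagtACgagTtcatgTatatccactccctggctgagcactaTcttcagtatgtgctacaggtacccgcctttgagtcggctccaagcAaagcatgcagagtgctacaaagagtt
Bcl2a1d: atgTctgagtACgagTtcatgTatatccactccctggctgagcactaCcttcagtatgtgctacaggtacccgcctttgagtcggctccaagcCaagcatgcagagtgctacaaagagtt

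Over all 519 coding bases, 12 positions varied among the 3 genes. Bcl2a1b and Bcl2a1d differed at 6, Bcl2a1a and Bcl2a1d at 7, and Bcl2a1a and Bcl2a1b at 11. Of all stretches of 100 bases, the read length, 43.5% of those in the Bcl2a1a transcript occurred unchanged in another copy. The share was 31.1% for Bcl2a1b and 54.7% for Bcl2a1d, so counts of 1 copy may hold reads of another, and the sum over the 3 copies is the safer value. The gene model Gm29094 shares exon sequence with Bcl2a1b on the same strand and had 0 to 23 counts per tumour. Bcl2a1c, a further copy, had 0 counts in all 6 tumours, under the floor of 3 counts, which corresponds to 0.0304 to 0.0817 CPM.

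Bcl2a1b had 30.3, 39.7 and 17.8 CPM in PV-10 tumours 1, 2 and 3, and 8.04, 9.12 and 6.97 CPM in PBS tumours 1, 2 and 3. The lowest PV-10 tumour, tumour 3, was still above the highest PBS tumour. Its log2 change was 1.86 (SE 0.33, edgeR adjusted p = 0.0443). Bcl2a1d had 6.94, 14.02 and 5.27 CPM in PV-10 tumours 1, 2 and 3, against 2.41, 1.69 and 3.02 CPM in PBS tumours 1, 2 and 3, again without overlap. Its log2 change was 1.88 (SE 0.45, edgeR adjusted p = 0.0480). Bcl2a1a had 2.94, 14.2 and 4.08 CPM in PV-10 tumours 1, 2 and 3, and 3.05, 1.84 and 1.70 CPM in PBS tumours 1, 2 and 3. PV-10 tumour 1 lay among the PBS tumours for this copy, and its log2 change of 1.68 (SE 0.61) did not pass (edgeR adjusted p = 0.0999).

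The summed Bcl2a1 counts were 2336, 2480 and 2384 in PV-10 tumours 1, 2 and 3, and 1187, 1223 and 1211 in PBS tumours 1, 2 and 3. Scaled to library size these were 40.2, 67.9 and 27.2 CPM in PV-10 tumours against 13.5, 12.6 and 11.7 CPM in PBS tumours. The log2 change of the sum was 1.84 (SE 0.35, edgeR adjusted p = 0.0442). That adjusted p was the lowest in the fit but gives no rank, as many genes shared the lowest value in the main test. In CPM the sum was higher in 3 of 3 PV-10 tumours, as were 22.0% of all tested genes. The sum was not fitted with trends removed or with any tumour left out. Bcl2a1b supplied most of these counts, 75.4%, 58.5% and 65.6% in PV-10 tumours 1, 2 and 3 and 59.6%, 72.1% and 59.6% in PBS tumours 1, 2 and 3, so the split between copies did not separate the groups. In summed TPM the levels were 25.2, 46.1 and 25.1 in PV-10 tumours and 14.7, 19.2 and 15.4 in PBS tumours, also without overlap. In bulk tissue, more cells that carry these transcripts and more transcript per cell cannot be told apart.

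Markers of white blood cells are given beside this result because A1 is typical of those cells. Summed over 6 general leukocyte markers, the level was 85.04, 138 and 236 TPM in PV-10 tumours 1, 2 and 3, and 288, 332 and 307 TPM in PBS tumours 1, 2 and 3. All 3 PV-10 sums were lower, on the scale where 31.0% of all genes were. Laptm5 alone held 10.2, 19.3 and 70.3 TPM of the PV-10 sums and 110.3, 136 and 124 TPM of the PBS sums. On the edgeR scale the 6 markers divided into 3 positive and 3 negative log2 changes with a median of -0.06, none of them called, and none was at 0 in any tumour. The sum of 10 macrophage and monocyte markers was 679, 755 and 1006 TPM in PV-10 tumours against 1180, 1048 and 920 TPM in PBS tumours, an overlap, with 0 of 10 called, 2 of 10 log2 changes positive and a median of -0.16. Neutrophil, T cell, B cell and mast cell markers also overlapped in their TPM sums and gave no call. The Bcl2a1 sum was higher in PV-10 tumours on both scales. On the edgeR scale most log2 changes of these markers were positive. This held for 8 of 8 T cell markers (median 0.98), 5 of 6 B cell markers (1.94), 5 of 6 neutrophil markers tested of 8 listed (0.72) and 4 of 6 mast cell markers (0.13), against a median of 0.30 over all genes. Csf3r, Ly6g, Mmp8, Retnlg and S100a8 among the neutrophil genes, Cd3d among the T cell genes, and Cd79b among the B cell genes were at 0 in at least 1 tumour. Of 6 natural killer cell markers, 1 was called higher. This was Klrd1, a killer cell receptor subunit, at 10.5 ± 3.73 CPM in PV-10 tumours and 2.30 ± 0.0968 CPM in PBS tumours (SD, n = 3 each; log2 change 2.19, edgeR adjusted p = 0.0443). With length and GC trends removed its log2 change was 0.65 and the call was lost (edgeR adjusted p = 0.274). Of the 6, 5 had positive log2 changes, with a median of 0.72. The summed natural killer cell markers overlapped, at 5.85, 13.4 and 11.7 TPM in PV-10 tumours and 3.72, 7.93 and 7.55 TPM in PBS tumours, with Gzma at 0 in 1 tumour. The part of any cell type in the Bcl2a1 rise was not tested.

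Just upstream of the Bcl2a1 copies, whose CPM were all highest in PV-10 tumour 2, the genome repeats itself almost letter for letter. Bcl2a1a, the copy that was not called, holds the same 142 bases as Bcl2a1b, so only Bcl2a1b and Bcl2a1d are shown. The stretches below come from RefSeq's promoter table for GRCm38.p6, chr9:89199023-89199164 on the plus strand for Bcl2a1b and chr9:88731915-88732050 on the minus strand for Bcl2a1d. Capitals mark the mismatched position and the 6 bases missing from the other copy, and the other 135 positions are identical.
Bcl2a1b: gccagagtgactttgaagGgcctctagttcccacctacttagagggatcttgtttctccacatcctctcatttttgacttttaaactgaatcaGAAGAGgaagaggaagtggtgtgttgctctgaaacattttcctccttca
Bcl2a1d: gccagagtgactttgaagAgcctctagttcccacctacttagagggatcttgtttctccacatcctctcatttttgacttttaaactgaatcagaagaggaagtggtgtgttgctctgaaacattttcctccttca

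The 10-base NF-kappaB motif was searched on both strands of the 12 promoter windows listed for the 10 genes, each of 300 bases. It occurred in 1 of the Bcl2l1 windows and in none of the others, while 8.46% of 32851 mouse promoter windows of that length held it. These letters being absent from the Bcl2a1 windows says nothing about NF-kappaB at these genes.

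Bax, the pore former that moves from the cytosol to mitochondria (ENSMUSG00000003873.11, chromosome 7, 45461697 to 45466898), had 42.5, 41.9 and 44.05 CPM in PV-10 tumours 1, 2 and 3, and 34.98, 25.2 and 29.04 CPM in PBS tumours 1, 2 and 3. The PV-10 tumours, tumour 3 included, were close to each other and above every PBS tumour. The log2 change of 0.53 (SE 0.24) did not pass the edgeR test (adjusted p = 0.182), and DESeq2 gave 0.64 with an adjusted p of 0.0421 in a test that called 15.8% of all genes higher. In TPM, Bax was at 25.1, 26.04 and 36.98 in PV-10 tumours and at 35.1, 34.7 and 36.1 in PBS tumours. There the groups overlapped and the log2(TPM + 1) change was -0.28. Relative to the median of all genes, the change was 0.22 in the edgeR fit and -0.07 on the TPM scale.

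Bak1, which codes for the pore former that sits in the mitochondrial membrane (ENSMUSG00000057789.14, chromosome 17, 27019810 to 27029009), had 13.1, 11.9 and 38.7 TPM in PV-10 tumours 1, 2 and 3, and 53.8, 50 and 53.9 TPM in PBS tumours 1, 2 and 3. All PV-10 tumours were below the PBS tumours, PV-10 tumours 1 and 2 by far the most. In CPM, PV-10 tumour 3 (114) fell inside the PBS range of 92.1 to 134, against 57.2 and 47.9 in PV-10 tumours 1 and 2. The edgeR log2 change was -0.63 (SE 0.36, adjusted p = 0.276), and without PV-10 tumour 3 it was -1.10 with an adjusted p of 0.00742. With that tumour left out edgeR called 25.0% of all genes higher and 16.4% lower. Among the 10 it called Mcl1, Bcl2a1a, Bcl2a1b and Bcl2a1d higher and Bcl2, Bcl2l1 and Bak1 lower. The median log2 change over all genes was 0.89 in that fit, and Mcl1, at 0.49, lay below it. Limma on log2(TPM + 1) gave -1.47 and called Bak1 lower, with 17.2% of all genes. Exons of 2 Ggnbp1 gene models run over parts of Bak1 on the opposite strand. Their summed counts were 2.23%, 17.8% and 2.09% of those of Bak1 in PV-10 tumours 1, 2 and 3, and 0.956% to 2.45% in PBS tumours. The share was thus highest in PV-10 tumour 2, where Bak1 had 1750 counts and the Ggnbp1 models 311.

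Bok (ENSMUSG00000026278.14, chromosome 1, 93685660 to 93695764) was the pore former with the lowest mean level in both groups. It had 2.04, 1.16 and 3.91 TPM in PV-10 tumours 1, 2 and 3, and 3.87, 5.84 and 4.12 TPM in PBS tumours 1, 2 and 3. The groups overlapped through PV-10 tumour 3, on both scales. Its log2 change was -0.28 (SE 0.38, edgeR adjusted p = 0.640), and it was called under none of the settings tried.

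**Figure D2:**
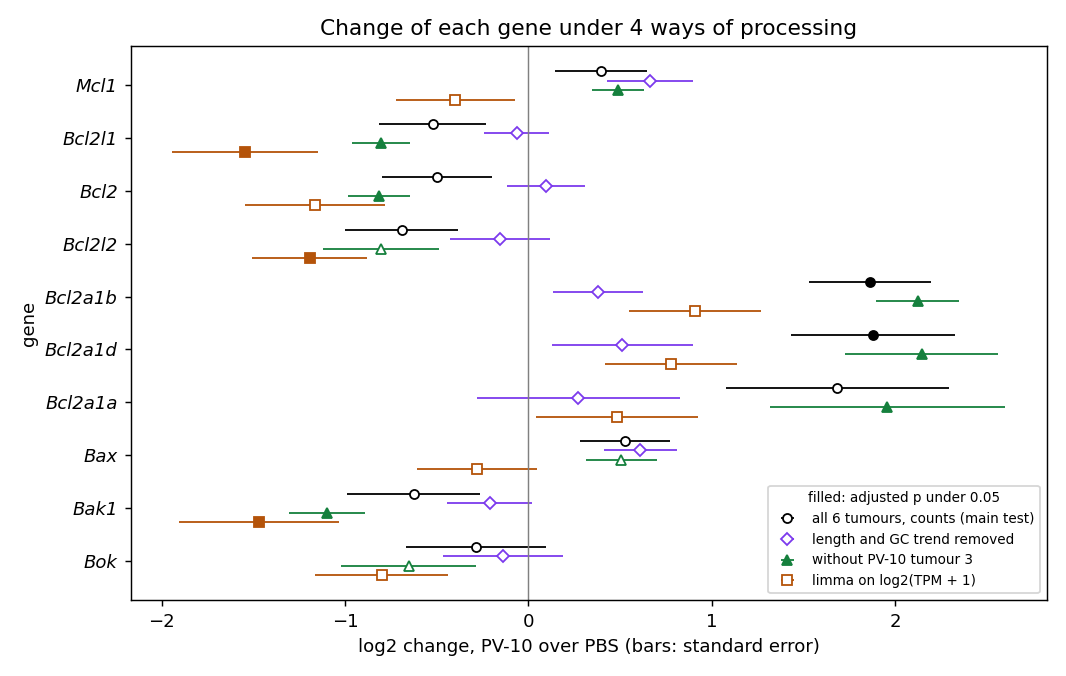
Log2 change of each gene, PV-10 over PBS, with its standard error, from edgeR on all 6 tumours, from edgeR after removal of length and GC trends, from edgeR without PV-10 tumour 3, and from limma on log2(TPM + 1). Filled symbols have an adjusted p under 0.05. The Bcl2a1 genes stay positive throughout but near 0.27 to 0.51 after trend removal, where the median over all genes was 0.22. Mcl1 and Bax are negative in the TPM fit alone among the 4 shown.

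Ratios within a tumour do not depend on how libraries are scaled to each other, and several of them separated the groups. They still carry the length trend wherever the 2 genes differ in length, as Bak1 (2387 bases) and Bax (1100 bases) do. These ratios were formed after the levels were known and carry no test; with 3 against 3 an exact permutation test cannot go below 0.1. Bak1 over Bax in TPM was 0.522, 0.458 and 1.05 in PV-10 tumours 1, 2 and 3, and 1.54, 1.44 and 1.495 in PBS tumours 1, 2 and 3. PBS tumours thus held more Bak1 than Bax transcript, and PV-10 tumours 1 and 2 less, with PV-10 tumour 3 near equality. Mcl1 over Bcl2l1 in TPM was 2.62, 2.56 and 1.23 in PV-10 tumours and 0.812, 1.04 and 0.823 in PBS tumours, so each PV-10 tumour held more Mcl1 than Bcl2l1. Bax over Bcl2 in TPM, a ratio often read in apoptosis work, was 8.47, 7.96 and 4.94 in PV-10 tumours against 3.54, 2.69 and 3.72 in PBS tumours. Bax over Bcl2l1 in TPM was 1.62, 1.37 and 0.886 in PV-10 tumours against 0.583, 0.489 and 0.460 in PBS tumours. Ratios over Bcl2l1 also carry its implied effective length, which was 18.1% longer in the PV-10 mean, against 0.592% for Mcl1 and 2.92% for Bax. The share of all gene pairs whose ratio separates the groups was not determined.

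Other ratios did not separate the groups. Bax over Mcl1 in TPM was 0.620, 0.537 and 0.720 in PV-10 tumours and 0.718, 0.468 and 0.559 in PBS tumours. Bak1 over Bcl2l1 in TPM was 0.846, 0.629 and 0.927 in PV-10 tumours and 0.895, 0.705 and 0.688 in PBS tumours. Bak1 over Mcl1 in TPM was 0.324, 0.246 and 0.753 in PV-10 tumours and 1.102, 0.675 and 0.836 in PBS tumours, where PV-10 tumour 3 alone lay within the PBS range. The survival genes summed to 85.3, 118 and 128.2 TPM in PV-10 tumours and 138, 182 and 173 TPM in PBS tumours. The pore formers summed to 40.2, 39.1 and 79.6 TPM in PV-10 tumours and 92.8, 90.6 and 94.1 TPM in PBS tumours. Both sums were lower in every PV-10 tumour, on the scale where 31.0% of all tested genes were lower without overlap and 9.58% higher. The ratio of survival to pore former sum overlapped, at 2.12, 3.01 and 1.61 in PV-10 tumours and 1.49, 2.01 and 1.84 in PBS tumours. The summed TPM of the 9 epithelial markers was also lower, at 191, 220.02 and 344 in PV-10 tumours and 470.3, 402 and 462 in PBS tumours, and most of it came from Krt8 and Krt18. None of these markers was called by edgeR, and 7 of 9 log2 changes were positive, with a median of 0.51 against 0.30 over all genes. Of the positive ones, Epcam, Krt5, Krt14 and Trp63 had low PBS means of 0.233 to 1.15 CPM. Krt18, Krt19 and Krt7, with more counts, changed by 0.05, 0.09 and 0.51, and Krt8 (-0.71) and Cdh1 (-1.12) were negative. Epcam and Krt5 were at 0 in at least 1 tumour. Markers of fibroblasts (6, median log2 change 0.04) and endothelial cells (5, median -0.81) overlapped in their sums and gave no call. The part of these cells in the lower sums of the family was not tested.

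The makeup of the survival sum differed by group. The Bcl2a1 copies made up 29.5%, 39.1% and 19.6% of it in PV-10 tumours 1, 2 and 3, and 10.6%, 10.5% and 8.88% in PBS tumours 1, 2 and 3. Bcl2l1 made up 18.1%, 16.1% and 32.5% in PV-10 tumours and 43.5%, 38.9% and 45.3% in PBS tumours. The share of Mcl1 overlapped between the groups, at 40.1% to 47.4% in PV-10 tumours and 35.3% to 40.6% in PBS tumours. The share of Bcl2l2 was also lower, at 1.52%, 1.02% and 1.95% in PV-10 tumours and 3.40%, 2.87% and 2.87% in PBS tumours. None of the shares that differed reached the range of the other group in PV-10 tumour 3, which lay nearest to it. Like the ratios, the shares were not tested and carry the length trend where genes differ in length.

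**Figure D3:**
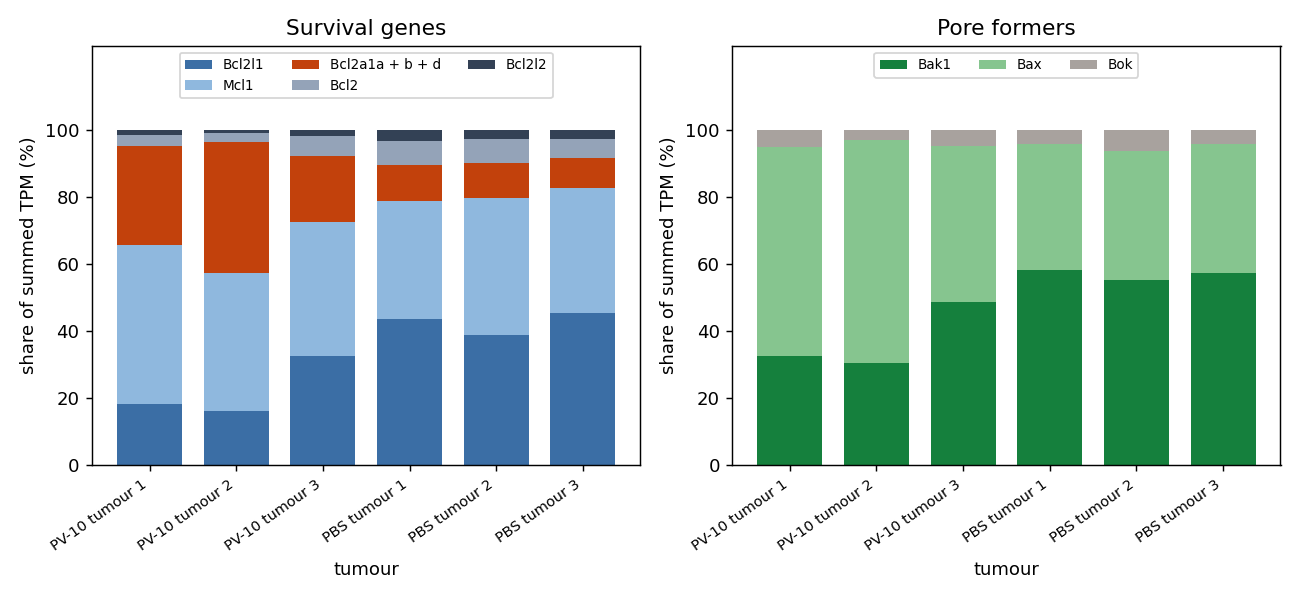
Share of each gene in the summed TPM of the survival genes (left panel) and of the pore formers (right panel), for the 3 PV-10 tumours and then the 3 PBS tumours; each bar adds to 100%. In PV-10 tumours the Bcl2a1 copies take 19.6% to 39.1% of the survival sum, against 8.88% to 10.6% in PBS tumours, and Bax takes 46.5% to 66.5% of the pore former sum, against 37.8% to 38.3%.

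Ordered by mean TPM, the levels in PV-10 tumours ran from Mcl1 (46.8 ± 5.67) over Bax (29.4 ± 6.62), Bcl2l1 (25.4 ± 14.3), Bak1 (21.2 ± 15.1) and Bcl2a1b (21.1 ± 5.57) to Bcl2a1d, Bcl2a1a, Bcl2, Bok and Bcl2l2 (1.67 ± 0.723; SD, n = 3). Mcl1 lay clear of Bax, and Bcl2a1b of Bcl2a1d, while all other neighbours in this order overlapped in their ranges. In PBS tumours the order was Bcl2l1 (69.8 ± 9.18), Mcl1 (62.5 ± 12.7), Bak1 (52.6 ± 2.25), Bax (35.3 ± 0.710), Bcl2 (10.8 ± 1.78), Bcl2a1b (10.7 ± 2.83), Bcl2l2, Bok, Bcl2a1d and Bcl2a1a (2.81 ± 0.550; SD, n = 3). There Bak1 lay clear of Bax, Bax of Bcl2, Bcl2a1b of Bcl2l2, and Bok of Bcl2a1d, and the other neighbours overlapped.

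Changes over the whole table ran with transcript length, and the 3 short Bcl2a1 genes had the largest positive changes of the 10. The other members did not follow length order: Mcl1 (3418 bases) was at 0.40 and Bok (1468 bases) at -0.28. The slope of log2 CPM per doubling of transcript length, against the mean of all libraries, was -0.297, -0.254 and -0.0915 in PV-10 tumours 1, 2 and 3, and 0.129, 0.280 and 0.234 in PBS tumours 1, 2 and 3. Among 389 well-counted genes of 700 to under 1000 bases, the class of the Bcl2a1 genes (817 to 863 bases), the median log2 change was 0.97, with the middle 50% of genes between 0.36 and 1.503. All 3 Bcl2a1 changes lay above that range. Mcl1, with 3418 bases, also lay above the middle 50% of its class (-0.75 to 0.29 around a median of -0.27). Bak1, with 2387 bases, lay below its class (-0.55 to 0.53), and Bcl2l1, Bcl2l2, Bcl2 and Bax lay within theirs. Bok, at -0.28 with 1468 bases, was also within its class (-0.37 to 0.78).

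After the length and GC trends were taken out, the members changed by log2 values of 0.38 for Bcl2a1b, 0.51 for Bcl2a1d and 0.27 for Bcl2a1a, with edgeR adjusted p-values of 0.352, 0.429 and 0.787. The largest positive values were then those of Mcl1 (0.66, edgeR adjusted p = 0.118) and Bax (0.61, adjusted p = 0.102). No member was called, and 1 of 22056 genes was (0.00453% higher). The median log2 change over all genes was 0.22 in that fit. Removing the trend with effective length in place of longest transcript length and GC content left 1.07 for Bcl2a1b (edgeR adjusted p = 0.0581), 1.16 for Bcl2a1d, 0.92 for Bcl2a1a and 0.88 for Mcl1 (adjusted p = 0.0641), while Bax, at 0.61 under the other removal, turned to -0.15. With length and GC trends removed and PV-10 tumour 3 left out, Mcl1 (0.85, edgeR adjusted p = 0.00946) and Bax (0.71, adjusted p = 0.0287) were called higher, with 18.7% of all genes. This alternative was chosen after seeing the data, and its median log2 change over all genes was 0.66. How much of each change comes with RNA length and GC makeup of the libraries, and how much with the treatment, cannot be told apart in 3 against 3 tumours.

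**Figure D4:**
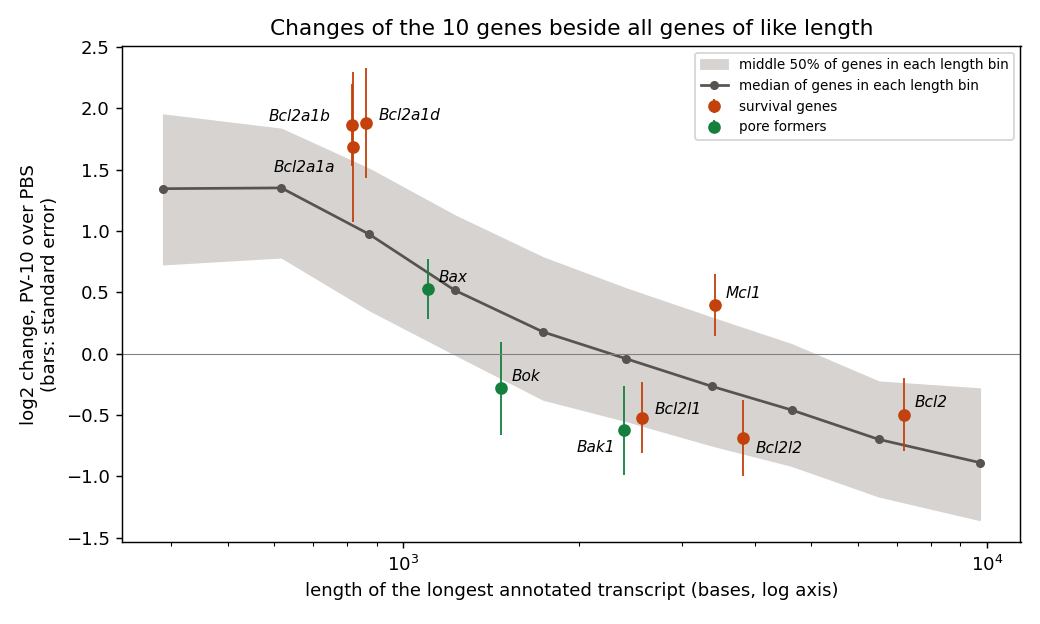
Log2 change of the 10 genes, PV-10 over PBS, with standard errors, against the length of the longest annotated transcript (log axis); the line and band give the median and the middle 50% of well-counted genes in each length class. The medians fall with length, the 3 Bcl2a1 genes and Mcl1 lie above the band, and Bak1 lies below it.

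The BH3-only genes, whose proteins set off the pore formers, gave no call in either direction among 8 tested, with a median log2 change of 0.21 against 0.30 over all genes. Bad, a BH3-only gene controlled by growth factor signalling, had 50.2, 39.6 and 30.9 CPM in PV-10 tumours 1, 2 and 3, and 22.4, 16.96 and 15.4 CPM in PBS tumours 1, 2 and 3. The groups did not overlap, and at a log2 change of 1.14 its adjusted p of 0.0505 (edgeR) just missed the threshold. Bcl2l11, which codes for BIM, had 12.5, 16.1 and 36.4 CPM in PV-10 tumours against 41.7, 57.8 and 40.3 CPM in PBS tumours (log2 change -1.10, edgeR adjusted p = 0.103). Both are named as the most abundant of the list, and their changes had opposite signs.

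Among 10 genes that act after the pore, such as cytochrome c, 0 were called, and the median log2 change was 0.05. Cycs, which codes for cytochrome c, was at 155 ± 63.8 CPM in PV-10 tumours and 61.4 ± 17.1 CPM in PBS tumours (SD, n = 3 each; log2 change 1.34, edgeR adjusted p = 0.0593). Of 6 other BCL2-like genes, 4 were tested and none called.

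Of 14 channels and regulators that bind or turn over BCL2 proteins, 1 was called lower and none higher, and 5 had positive log2 changes (median over the 14, -0.28). The called gene was Huwe1, which codes for a ubiquitin ligase that marks MCL1 for breakdown. It had 195, 235 and 412 CPM in PV-10 tumours 1, 2 and 3, and 837, 926 and 897 CPM in PBS tumours 1, 2 and 3, and edgeR put its log2 change at -1.66 (SE 0.34, adjusted p = 0.0443). With length and GC trends removed the log2 change was -0.95, and the call was lost (edgeR adjusted p = 0.0852). Usp9x, which codes for an enzyme that removes ubiquitin from MCL1, was at 353 ± 43.1 CPM in PV-10 tumours and 555 ± 58.8 CPM in PBS tumours (SD, n = 3 each; log2 change -0.65, edgeR adjusted p = 0.127). Tmbim6, a regulator of cell death at the endoplasmic reticulum, was at 325 ± 167 CPM in PV-10 tumours and 549.9 ± 129 CPM in PBS tumours (log2 change -0.76, edgeR adjusted p = 0.218). Bnip3l, a BCL2-interacting gene of mitochondrial turnover chosen here after its values were seen, just missed the threshold, at 170.5 ± 24.5 CPM in PV-10 tumours and 82.3 ± 9.56 CPM in PBS tumours (log2 change 1.05, edgeR adjusted p = 0.05004).

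None of 7 NF-kappaB pathway genes was called, and all 7 had negative log2 changes, with a median of -0.996. Over all 22056 tested genes, 9153 changes were negative and the median was 0.30. The 7 include the inhibitor genes Nfkbia (-0.34) and Tnfaip3 (-0.31) beside subunit genes. Nfkb1 had 44.5, 46.6 and 75.6 CPM in PV-10 tumours 1, 2 and 3, and 108, 111 and 114 CPM in PBS tumours 1, 2 and 3 (log2 change -0.996, edgeR adjusted p = 0.0632). Rela, its partner subunit, had 26.5, 44.5 and 103 CPM in PV-10 tumours against 147, 138 and 127.6 CPM in PBS tumours (log2 change -1.24, edgeR adjusted p = 0.1001). In both genes every PV-10 tumour was below every PBS tumour in CPM, as in 16.8% of all tested genes. The Bcl2a1 sum had the opposite sign, and a link between them was not tested. With length and GC trends removed, the median of the 7 was -0.54.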

How the data were processed

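Total RNA from 6 tumours was sequenced as pairs of 100-base reads from strand-specific libraries made from 100 ng each, per the labels' protocols. Per the labels' protocols the authors removed adapters (BBMerge 37.02, cutadapt 1.8.1), mapped reads onto mm10 by STAR 2.7.7a, and counted genes of Gencode release M21 through RSEM 1.3.0. The deposited count table holds whole numbers that are not normalized, which may be rounded RSEM estimates, and the deposited TPM table holds values scaled by length. Whether counting used the strand is not given in the sources used here. RSEM shares reads among similar genes. Reads carry no molecular identifiers, so floors cover counting error only.

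Genes were tested in edgeR 4.0.16 under R 4.3.3 by a robust quasi-likelihood fit with its default expression filter and TMM scaling, two-sided, with Benjamini-Hochberg adjustment over 22056 genes; the biological coefficient of variation was 0.777. The lowest adjusted p, 0.0443, is shared by many genes. Each standard error is the size of the log2 change divided by the root of F. CPM are TMM-scaled. Alternatives used DESeq2 1.42.0, limma 3.58.1 on log2(TPM + 1) or log2(TPM + 0.1), other scalings and filters, a replicate block, summed Bcl2a1 copies, trends removed with splines of 5 degrees of freedom, and each tumour left out. Trends were fitted where the average log2 CPM reached 1, a limit set after seeing the slopes. Effective lengths were counts over TPM, set to bases on genes with 1 transcript. The scripts were tested on simulated data.

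The 10 genes, the gene lists and the marker lists were chosen with earlier results of these data known. The rule for named genes takes all 10, up to 4 called and the 2 most abundant genes of each pathway list, the same from marker lists that move with a member, and for Mcl1, Bcl2a1b and Bax the 3 genes of most similar profile. Lists are described by counts and medians, and marker lists also by summed TPM. Values of some genes on these lists are not reported here.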

Additional observations from a re-analysis of the deposited data

How the results depend on the processing

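Of 10 members, 2 were called in the edgeR test, 4 by DESeq2, 1 (of 8) with the Bcl2a1 copies summed, 0 with length and GC trends removed, 0 with the effective length trend removed, and 0 by limma on log2(TPM + 1) with no filter. Limma with either TPM pseudocount called 3 different members, Bcl2l1, Bcl2l2 and Bak1, all lower. Leaving out 1 tumour gave 0 to 7 members and 1 to 11399 genes. The 7 came without PV-10 tumour 3, where Mcl1, Bcl2a1a, Bcl2a1b and Bcl2a1d were called higher and Bcl2, Bcl2l1 and Bak1 lower. Mcl1 changed by 0.49 there, below the median of 0.89 over all genes. Without any other tumour no member was called. With trends removed and PV-10 tumour 3 left out, 2 other members were called, Mcl1 and Bax, with 7646 genes. Their log2 changes were 0.85 and 0.71, beside a median of 0.66 over all genes. Against 1122 genes in the main test there were 2537 with DESeq2 size factors, 2441 with library size, 5720 by DESeq2, 4037 and 3998 by limma on log2(TPM + 1) and log2(TPM + 0.1), 3 with no TPM filter, 4664 with no count filter, 2705 at a mean count of at least 50, and 1 under each trend removal, where 5690 (length and GC) and 5103 (effective length) had an unadjusted p under 0.05. The lowest adjusted p in the main test was 0.0443, close to the threshold of 0.05.

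Signs turned for Bcl2 (0.10 with length and GC trends removed, 0.34 with the effective length trend removed), for Mcl1 (-0.40 in each of 3 TPM fits) and for Bax (-0.28, -0.29 and -0.28 in the TPM fits with pseudocounts of 1, 0.1 and no filter, and -0.15 with the effective length trend removed). The other 7 members kept their sign under all 19 alternatives. Replicate numbers occur in both groups. With a replicate block, 2 members and 2872 genes were called. The numbers were not taken as pairs, since deviations of same-numbered tumours correlated at -0.0486, 0.0711 and 0.0722, and not every tumour correlated best with its own number. Causes of these shifts were not tested. Depth was 36730318 counts at least, and Bok had 114 counts in PV-10 tumour 2. How much of the spread came from counting was not tested.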

Other observations

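By the root mean square difference of centred log2 CPM over the 6 tumours, among 11848 well-counted genes, the profile closest to Mcl1 was that of Gnb4, a G protein beta subunit gene, at 0.0362, followed by Gipc1 at 0.0499 and Mllt11 at 0.0577. Closest to Bcl2a1b were Rpl10a-ps1 at 0.106, the chemokine gene Ccl27a at 0.112 and Gngt2, a G protein gamma subunit gene, at 0.116. Their log2 changes were 1.74, 1.94 and 1.88, beside 1.86 for Bcl2a1b. Closest to Bax were Oard1 at 0.0521, Arpp19 at 0.0526 and Cox5a, a subunit gene of cytochrome c oxidase, at 0.0630. The nearest genes of Mcl1 and Bax, like both members, were not called by edgeR (adjusted p of 0.153 to 0.303).

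Genes of skeletal muscle summed to 18.6, 104 and 2.80 TPM in PV-10 tumours 1, 2 and 3, and to 14.5, 3.59 and 2.17 TPM in PBS tumours 1, 2 and 3. PV-10 tumour 2 was by far the highest and was also the tumour with the most Bcl2a1 and Mcl1 CPM. None of the 5 genes was called, all 5 log2 changes were positive with a median of 4.70, Ckm and Myh4 were at 0 in at least 1 tumour, and their part in the members' values was not tested.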
